A study of Drosophila melanogaster with 14 samples.

Results

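Control libraries from 3 separate experiments on fly neural stem cells were compared: the 2 HDAC1 controls on one side, and the 5 other controls (3 GAF controls and 2 Osa controls) on the other. These 7 libraries were taken by their column names from a table of 14, in which the other 7 are HDAC1 RNAi, GAF RNAi and Osa overexpression libraries. Every control carries the genotype label WT, the tissue label larval brain and the cell type label type II NSC, with polyA RNA amplified from about 1k to 2k cells per library. The labels give no age, sex, driver or cross for any group, and do not say whether replicates are separate animals, so p-values measure the spread between libraries. Each set of controls belongs to its own experiment, so the identity of the controls and the experiment in which they were prepared cannot be told apart.

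Type II neuroblasts are neural stem cells of the Drosophila larval brain that lack the type I factor Asense and renew themselves while producing intermediate neural progenitors. Those progenitors mature, divide several times and give ganglion mother cells, whose daughters become neurons or glia. Deadpan and Worniu mark neuroblasts, Buttonhead and Pointed help to specify the type II lineage, Prospero drives the exit from self-renewal, and the RNA-binding proteins Imp and Syp mark early and late stages of a neuroblast's life.

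Total counts were 34434798 and 34124750 in the HDAC1 controls, 43956391 to 51505597 in the GAF controls and 31788351 and 34062172 in the Osa controls. Thinned to the smallest total, the HDAC1 controls held at least 10 counts for 9734 and 10554 genes, against 8164 to 8981 in the other 5. Log2 levels correlated at 0.989 between the 2 HDAC1 controls, at 0.883 to 0.914 between them and the other controls, and at 0.941 to 0.955 between GAF and Osa controls. Levels are given as CPM, counts scaled to a common library total with TMM factors, listed as HDAC1 controls, then GAF controls, then Osa controls.

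Of 10246 genes tested, 56.8% differed between the HDAC1 controls and the equally weighted mean of the other control groups at an adjusted p under 0.05, with 2788 higher and 3032 lower. Against the GAF controls alone 60.0% differed, and against the Osa controls alone 48.6%. GAF and Osa controls, which share the WT label too, differed from each other at 38.3% of genes. A gene is called higher or lower here only where the HDAC1 controls differed from GAF controls and from Osa controls in the same direction. That held for 36.0% of genes, 1442 higher (14.1%) and 2244 lower (21.9%). The higher count was 847 without HDAC1 control 1 and 948 without HDAC1 control 2. Both contrasts share the HDAC1 libraries, and under RLE scaling the split was 1783 higher and 1843 lower. That scaling moved the median log2 difference of all genes from 0.06 to 0.24.

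The defining genes dpn, wor, btd and pnt had counts in all 7 libraries. Neuroblast self-renewal genes that were called against both groups were all lower. Of 17 self-renewal factors, 9 were lower in the HDAC1 controls, none was higher and 8 were not called, with a median log2 difference of -0.37 against 0.06 over all genes. The gene dpn, which encodes the neuroblast repressor Deadpan (chromosome 2R, 8228971 to 8232330, minus strand, dm6), stood at 7.63 and 7.12 CPM, against 45.2, 57.2 and 51.3 CPM in GAF controls and 43.9 and 52.6 CPM in Osa controls. The groups did not overlap, and the log2 difference was -2.75 ± 0.18 (SE, adjusted p = 5.58e-07). Exons of dpn share 59.3% of their length with genes on the other strand, and the library kit does not mark strand.

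The proneural gene ase, absent from type II neuroblasts but used by their progenitors, was at 7.95 and 4.09 CPM, against 32.5, 36.5 and 50 CPM in GAF controls and 58.6 and 40.5 CPM in Osa controls (log2 difference -2.88 ± 0.32, adjusted p = 2.84e-05). Worniu, the Snail-family factor of neuroblasts, was at 62.1 and 49.8 CPM for its gene wor, against 211 to 319 CPM in the other 5 libraries. In both genes every HDAC1 control lay below every other control. Also lower were the growth regulator Myc (197 and 179 CPM against 492 to 2041 CPM, with 61.2% of its exonic length shared with other genes), mira, whose product carries fate determinants to the daughter cell, and the phosphatase gene stg, which triggers mitosis. The call of stg was lost under RLE scaling and without HDAC1 control 2 or either Osa control.

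The type II identity factors did not move as a block. Of 7 tested, 2 were lower, 1 was higher and 4 were not called. The Sp-family gene btd was at 8.23 and 8.39 CPM, against 58.7, 60.8 and 92.3 CPM in GAF controls and 34.3 and 42.0 CPM in Osa controls (log2 difference -2.64 ± 0.22, adjusted p = 2.85e-06). Its relative Sp1 was at 87.6 and 92.9 CPM, against 63.9 to 91.9 CPM in the others, and was not called. The ETS gene pnt, at 466 and 429 CPM against 286 to 422 CPM, missed the call against GAF controls (adjusted p = 0.0637). The orphan receptor gene tll was lower (68.3 and 64.2 CPM against 107 to 181 CPM), a call lost without Osa control 1. Ets65A, the higher member, lost its call without either HDAC1 control or either Osa control. The progenitor factor erm was at 9.43 and 4.60 CPM and overlapped both other groups.

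**Figure D1:**
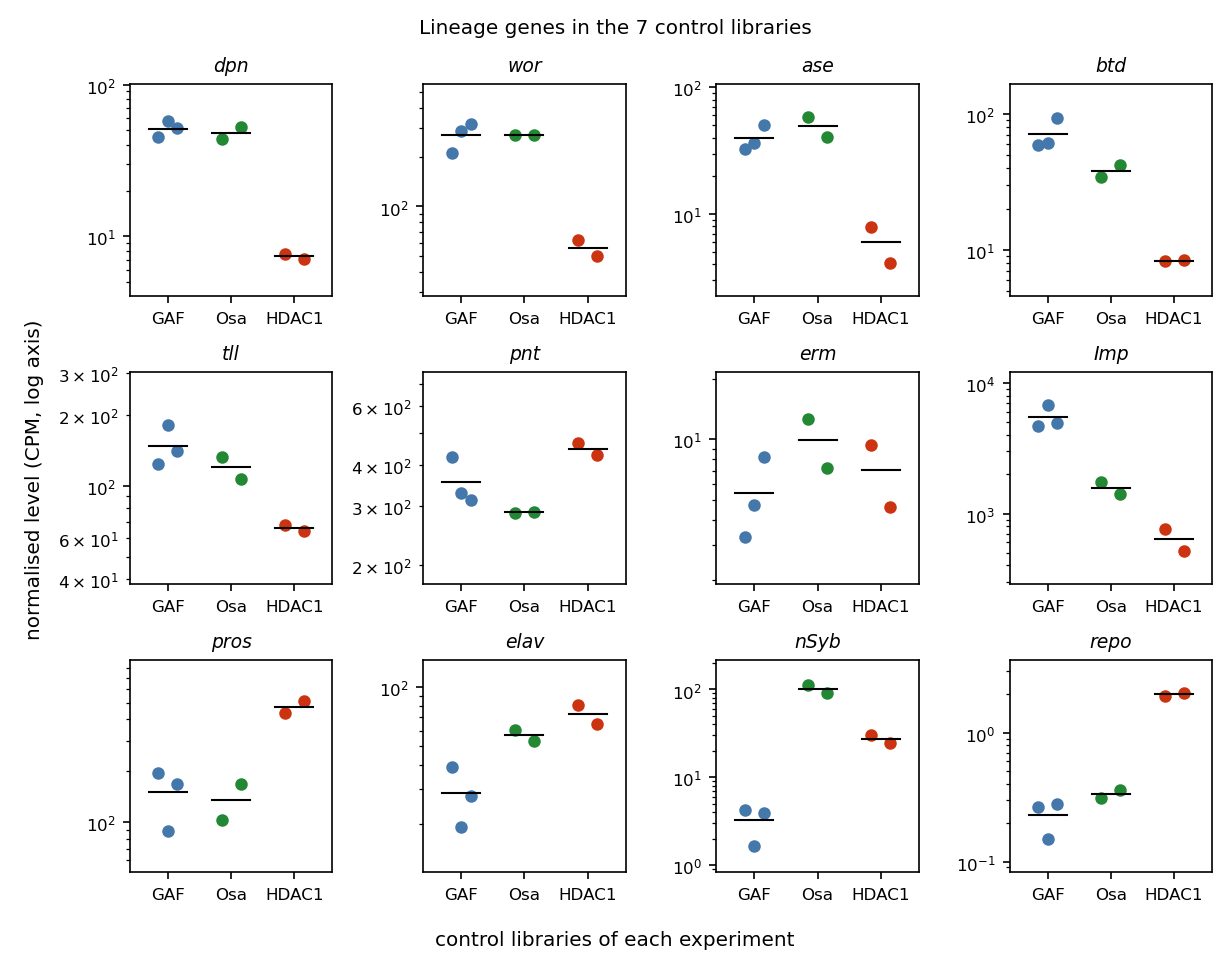
Normalised level in CPM (log axis) of 12 lineage genes in the control libraries of the GAF, Osa and HDAC1 experiments; each point is a library and each bar the group mean. The neuroblast genes dpn, wor, ase and btd lie below every other control in both HDAC1 libraries, pros and repo lie above, and nSyb lies between the GAF and Osa controls.

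Asymmetric division and proliferation genes went the same way. Of 23 asymmetric division and polarity genes, 14 were lower and 2 higher, and the cell polarity genes l(2)gl, par-6 and aPKC were among those lower. For l(2)gl the levels were 32.9 and 29.6 CPM, against 217, 319 and 245 CPM and 212 and 195 CPM. Of 40 cell cycle genes, 24 were lower and 1, the mitotic kinase gene aurB, was higher (a call lost without HDAC1 control 2, and 4 genes higher under RLE scaling), with a median log2 difference of -1.03. Cyclin D (CycD) was at 12 and 9.04 CPM against 37.3 to 105 CPM, and Cyclin A (CycA) at 85.4 and 74.4 CPM against 237 to 279 CPM. The replication factor gene PCNA was not called. In bulk libraries fewer cells of a type and less RNA per cell cannot be told apart.

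Differentiation genes split. Prospero's gene pros, one of the 2 higher asymmetric division genes, was at 435 and 513 CPM, against 194, 88.6 and 168 CPM in GAF controls and 103 and 168 CPM in Osa controls (log2 difference 1.73 ± 0.30, adjusted p = 0.00178). The call of pros was lost with no filter on low counts. Hey, a Notch target of newborn neurons, was higher as well (23.0 and 14.5 CPM against 1.91 to 6.98 CPM), a call lost without HDAC1 control 1 or either Osa control. Of 19 genes of ganglion mother cells and newborn neurons these were the 2 called, with 5 called higher without GAF control 1.

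Mature neuron genes took an intermediate place: of 26, 1 was called higher and 1 lower, although the median log2 difference was 2.65 against GAF controls and -0.94 against Osa controls. The synaptic vesicle gene nSyb shows the pattern, with 30.5 and 24.6 CPM in HDAC1 controls, 4.21, 1.63 and 3.94 CPM in GAF controls and 111 and 91.9 CPM in Osa controls. The active zone gene brp was at 37.1 and 29.4 CPM, not called against the 29.3 and 27.3 CPM of Osa controls and higher than the 0.946 to 1.70 CPM of GAF controls. The member called higher was the t-SNARE gene Syx1A (295 and 304 CPM against 116 to 146 CPM). The member called lower was unc-13, a synaptic vesicle priming gene (225 and 184 CPM against 282 to 362 CPM), a call lost under RLE scaling, by DESeq2 and without HDAC1 control 2 or either Osa control; the lower count also moved by more than 1.5 times without HDAC1 control 1.

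Of 23 glial genes 8 were higher and 5 lower, beside 14.1% higher and 21.9% lower over all genes. The lower share is near that of all genes. The summed level of the whole list overlapped between groups, at 764 to 974 CPM in HDAC1 controls and 828 to 1367 CPM in the others, and no member was at 0 throughout any group. The glial gene wrapper was at 47.2 and 37.0 CPM, against 1.17 to 2.66 CPM in the other 5 (log2 difference 4.45 ± 0.20, adjusted p = 1.28e-07). The pan-glial factor gene repo was at 1.94 and 2.03 CPM against 0.150 to 0.358 CPM, a call lost without any of the HDAC1 or Osa controls in turn. Glutamine synthetase Gs2 was also higher. Nrx-IV, which builds septate junctions, and the trehalose transporter gene Tret1-1 were lower (19.9 and 15.2 CPM against 37.0 to 138 CPM for Tret1-1). Without HDAC1 control 1 the higher count fell to 5, and without Osa control 2 the lower count fell to 3.

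Of the genes that mark developmental time, Imp was lower, at 756 and 520 CPM against 4727, 6766 and 4987 CPM in GAF controls and 1732 and 1424 CPM in Osa controls (log2 difference -2.21 ± 0.21, adjusted p = 6.50e-06). Its late counterpart Syp was lower too, at 3085 and 2822 CPM against 3826 to 7491 CPM, a call lost under RLE scaling, by DESeq2, with a filter at a mean of 5 CPM and without HDAC1 control 2 or Osa control 2. The early factor gene chinmo, at 384 and 368 CPM, was below GAF controls and was not called against Osa controls (441 and 422 CPM, adjusted p = 0.223). Of 6 early and 15 late genes listed as temporal, 2 and 3 were lower and 0 and 1 were higher. The late list also held ImpE1, ImpE2, ImpE3, ImpL1, ImpL2 and the lactate dehydrogenase gene Ldh, which are not neuroblast temporal factors. Its higher member was ImpE1. The early count was 1 without GAF control 1, and it also moved by more than 1.5 times without any HDAC1 or Osa control. The late higher count was 0 without HDAC1 control 2 and moved as far without GAF control 1.

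Among 28 Notch pathway genes, 7 were higher and 4 lower. The receptor gene N was at 532 and 471 CPM against 255 to 363 CPM. Nct, which encodes the gamma-secretase subunit nicastrin, was at 13 and 10.2 CPM against 387, 385 and 352 CPM and 130 and 112 CPM (log2 difference -4.19 ± 0.17, adjusted p = 1.22e-07). The Bearded-family genes Brd and Ocho, which restrain Notch ligand signalling, were higher from low levels, Brd at 32.5 and 14.3 CPM against 0.209 to 0.716 CPM. Without GAF control 1 the higher count rose to 17.

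**Figure D2:**
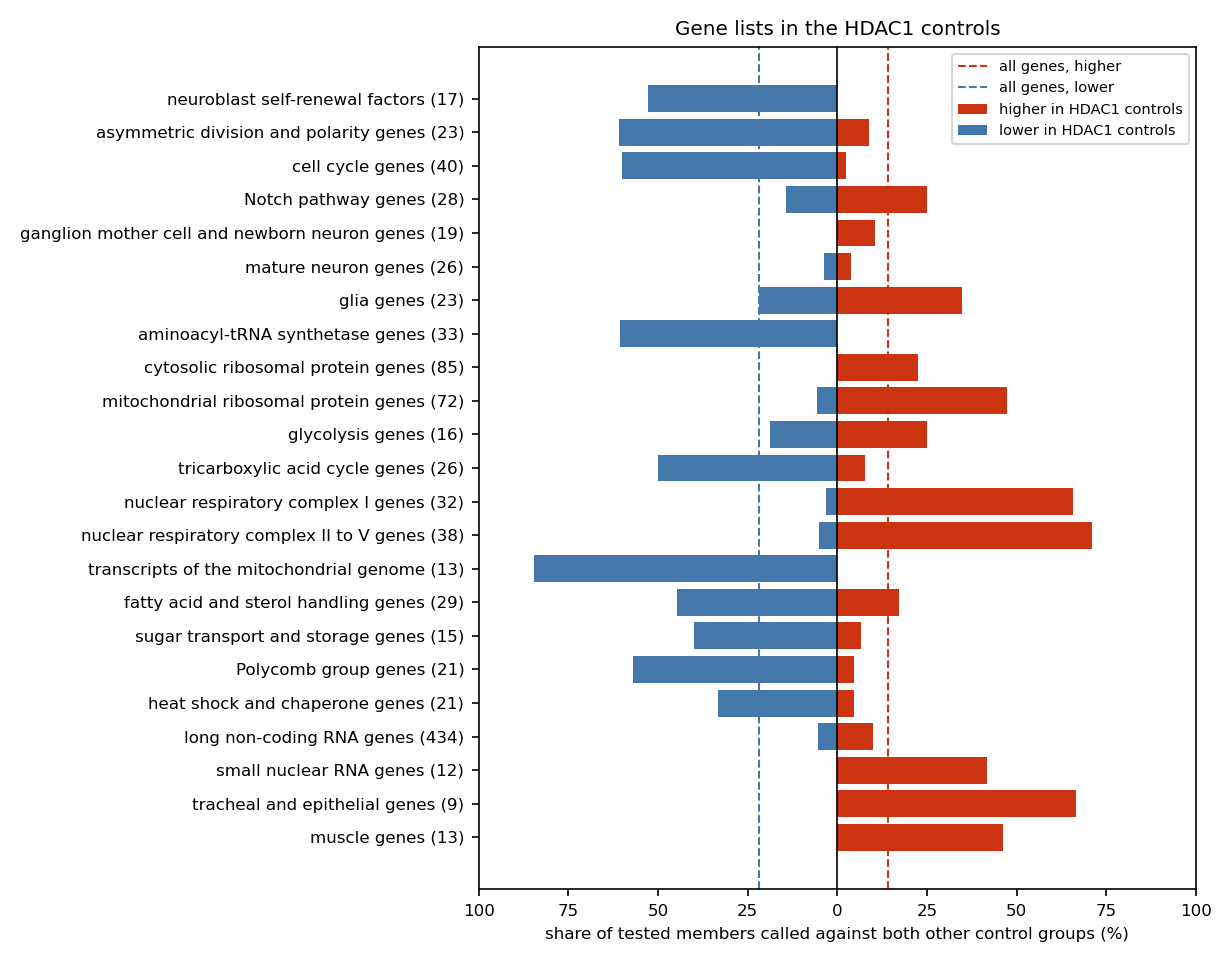
Share of tested members (%) called higher (red, right) or lower (blue, left) in the HDAC1 controls against both other control groups, for 23 gene lists with the number tested in brackets; dashed lines give the same shares over all genes, 14.1% and 21.9%. Neuroblast, polarity, cell cycle, tRNA synthetase and mitochondrial-genome lists lie to the left, and nuclear respiratory chain lists to the right.

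Transcripts of the respiratory chain parted by genome. Mitochondria make ATP with complexes whose subunits are encoded partly in the nucleus and partly in mitochondrial DNA. Of 13 mRNAs of the mitochondrial genome, 11 were lower in the HDAC1 controls and none was higher (median log2 difference -2.77), and their summed level was 2202 to 3585 CPM against 25464 to 29939 CPM in GAF controls and 8722 to 11568 CPM in Osa controls. Cytochrome b (CYTB) was at 308 and 195 CPM, against 8127, 5974 and 6068 CPM and 2291 and 1762 CPM (log2 difference -3.88 ± 0.25, adjusted p = 6.98e-07). COX1, the catalytic subunit of cytochrome oxidase, was at 917 and 490 CPM against 2275 to 8879 CPM. The called member nearest to the others was COX3, at 836 and 585 CPM against 1250 to 3611 CPM. The 2 HDAC1 controls differed among themselves in ND5, at 45.4 and 13.3 CPM, and stayed below the 545 to 1563 CPM of the other 5. The calls of ND2 and ND6 were lost without either Osa control, and that of ND6 also without GAF control 2.

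Nuclear genes of the respiratory complexes were mostly higher. These lists include complex II, which has no gene in mitochondrial DNA. Of 32 complex I genes, 21 were higher and 1, ND-49, was lower (median log2 difference 0.94). Of 38 genes of complexes II to V, 27 were higher and 2 lower (median 1.10). UQCR-Q, a subunit of complex III, was at 4073 and 3470 CPM, against 930, 818 and 750 CPM and 506 and 505 CPM (log2 difference 2.54 ± 0.12, adjusted p = 1.37e-07). The complex I subunit ND-B18 was at 634 and 587 CPM against 124 to 195 CPM. The exceptions were ATPsynbeta, the catalytic subunit of ATP synthase (800 and 775 CPM against 2179 to 4071 CPM), and SdhA, whose call was lost under RLE scaling and without either HDAC1 control or Osa control 1.

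Protein-coding genes of short exonic length were also shifted: in the 2367 shortest, of 177 to 1326 bases, the median log2 difference was 0.49, against -0.12, -0.43 and 0.01 in the 3 groups of longer genes. Of those shortest genes 27.9% were called higher and 4.6% lower. The part of length in the rise of the nuclear respiratory genes was not tested.

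The tricarboxylic acid cycle went the other way by calls, with 13 of 26 genes lower and 2 higher (median -0.81). Without GAF control 1 or under RLE scaling 4 were higher. The summed level of the list overlapped between groups, at 4902 to 5116 CPM in HDAC1 controls and 3820 to 5128 CPM in the others. Citrate synthase, encoded by kdn, was at 16.3 and 12.4 CPM, against 56.7, 73.8 and 68.8 CPM and 113 and 87.9 CPM (log2 difference -2.51 ± 0.19, adjusted p = 1.58e-06). The malic enzyme gene Men-b and the aconitase gene mAcon1 were lower as well. The higher members were Mdh1, a malate dehydrogenase, and SdhC, a membrane subunit that also belongs to complex II (2327 and 2331 CPM against 412 to 900 CPM).

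Glycolysis had no common direction: 4 of 16 genes were higher, 3 were lower, and the median of -0.08 turned to 0.10 under RLE scaling. Triose phosphate isomerase Tpi was at 1324 and 1285 CPM against 321 to 553 CPM, and phosphoglycerate mutase Pglym78 at 2202 and 1816 CPM against 709 to 937 CPM. Phosphoglucose isomerase Pgi was lower (142 and 113 CPM against 209 to 443 CPM), a call lost without HDAC1 control 2 or Osa control 1. The lactate dehydrogenase gene Ldh was not called. Under RLE scaling 1 glycolysis gene was called lower and without HDAC1 control 2 none, and that count also moved by more than 1.5 times without Osa control 1.

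More lipid genes were called lower than higher, with 13 of 29 lower and 5 higher. The summed level of the whole list overlapped, at 1659 to 2081 CPM in HDAC1 controls and 1605 to 2280 CPM in the others. Acsl, which activates fatty acids, was at 15.6 and 13.2 CPM against 69.1 to 90.8 CPM, and the desaturase gene Desat1 at 120 and 94.6 CPM against 338 to 714 CPM. The sterol carrier gene Npc2a (chromosome 2L, 1988290 to 1988940, plus strand) ran against them, at 411 and 398 CPM, against 6.10, 3.12 and 6.63 CPM and 4.84 and 5.37 CPM (log2 difference 6.28 ± 0.24, adjusted p = 1.22e-07). Without Osa control 2 the lower count was 7. Of 15 sugar transport and storage genes 6 were lower, among them the trehalase gene Treh and the glycogen synthase gene GlyS, and 1 was higher, a count of 0 without any of the HDAC1 or Osa controls in turn.

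Translation genes also divided. Of 33 aminoacyl-tRNA synthetase genes, which charge tRNAs with amino acids, 20 were lower and none higher (median -0.96), with IleRS at 63.0 and 62.8 CPM against 258 to 408 CPM. Cytosolic ribosomal protein genes had 19 of 85 higher and none lower (median 0.21), with 30 higher under RLE scaling and 26 higher and 2 lower under library size alone. Mitochondrial ribosomal protein genes had 34 of 72 higher and 4 lower (median 0.58), 2 lower without Osa control 1. Both ribosomal lists are of short genes, with median exonic lengths of 909 bases (cytosolic) and 783 bases (mitochondrial). Among the shortest protein-coding genes 27.9% were higher, with a median of 0.49, and the part of length in these 2 lists was not tested. The polymerase I factor gene Tif-IA was at 47.0 and 38.2 CPM, against 626, 553 and 544 CPM and 278 and 230 CPM.

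**Figure D3:**
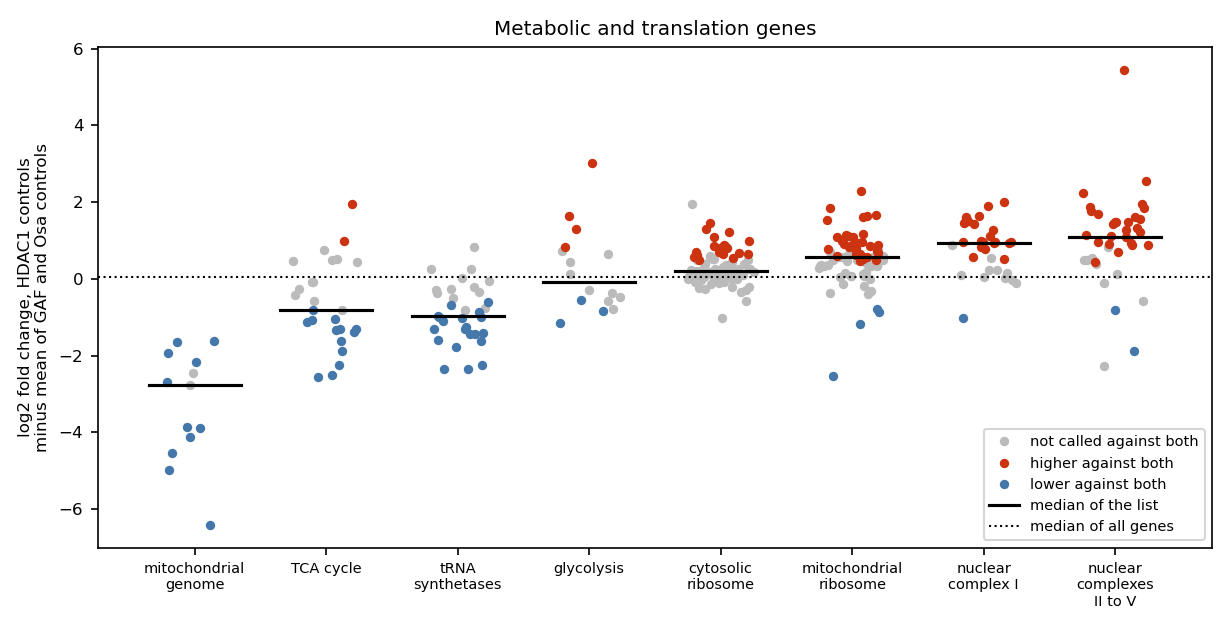
Log2 fold change of the HDAC1 controls minus the mean of GAF and Osa controls for each tested gene of 8 metabolic and translation lists; red and blue points are called higher and lower against both groups, black bars are list medians and the dotted line is the median of all genes, 0.06. The mitochondrial genome list has its median at -2.77 and the nuclear complex I and complex II to V lists at 0.94 and 1.10.

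Chromatin regulators included more lower than higher genes. Of 21 Polycomb group genes, 12 were lower and 1, Psc, was higher (159 and 149 CPM against 33.8 to 58.1 CPM), with 3 higher under RLE scaling. The DNA-binding recruiter gene pho was at 38.0 and 30.8 CPM against 203 to 356 CPM. Of 19 genes of histone deacetylase complexes, 9 were lower and 2 higher, with the higher count at 1 without HDAC1 control 1 and moved as far without HDAC1 control 2 or Osa control 1. HDAC1 itself, the deacetylase whose experiment these controls serve, was at 62.5 and 68.7 CPM, against 116, 158 and 151 CPM in GAF controls and 235 and 219 CPM in Osa controls (log2 difference -1.45 ± 0.15, adjusted p = 1.42e-05). Neither Trl, which encodes GAF, nor osa was called. Trl was uneven between the HDAC1 controls, at 15.1 and 5.28 CPM, and shares 77.8% of its exonic length with other genes. The level of osa was lower than in Osa controls (adjusted p = 0.00971) and missed the call against GAF controls (adjusted p = 0.0537). His3.3B, one of 2 genes for the same histone variant, was at 223 and 162 CPM against 2573 to 5050 CPM, while its companion His3.3A was at 838 and 810 CPM against 636 to 739 CPM and was not called.

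Long non-coding RNAs carried some of the largest counts in the table. By a rule on counts with no correction for length, the most counted gene in both HDAC1 controls was lncRNA:CR34335 (chromosome X, 3545750 to 3546110, minus strand), named after its values were seen. It stood at 97359 and 60873 CPM, against 35459, 19978 and 20419 CPM in GAF controls and 15868 and 10341 CPM in Osa controls (log2 difference 2.12 ± 0.28, adjusted p = 0.000282). In all 5 other controls the most counted gene was lncRNA:cherub (chromosome 3R, 11247631 to 11256123, minus strand), an RNA known for its unequal inheritance in type II neuroblast divisions. Its levels were 20756 and 20549 CPM, against 103694, 95661 and 93866 CPM and 58894 and 63903 CPM (log2 difference -1.91 ± 0.13, adjusted p = 6.76e-07).

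The nervous system RNA lncRNA:noe was higher, at 13768 and 15073 CPM against 926 to 3015 CPM. The stress-responsive nuclear RNA lncRNA:Hsromega was lower, at 937 and 1011 CPM against 1552 to 2512 CPM. In these 4 RNAs no HDAC1 control overlapped any other control. Among the other named long non-coding RNAs, lncRNA:CR43314 was at 27.3 and 28.5 CPM and did not pass 0.170 CPM elsewhere.

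The roX RNAs, which guide the dosage compensation complex to the male X chromosome, differed from each other. lncRNA:roX1 was at 315 and 250 CPM, against 537 to 1095 CPM in the other controls (log2 difference -1.50 ± 0.19, adjusted p = 4.63e-05). lncRNA:roX2 was at 256 and 396 CPM, against 0.477, 0.0860 and 0.0232 CPM in GAF controls and 0.283 and 98.0 CPM in Osa controls. It was not called against Osa controls (adjusted p = 0.342), whose 2 libraries lie far apart. Of 14 dosage compensation and sex genes 7 were lower and none higher, including the female-determining splicing factor gene Sxl (139 and 96.1 CPM against 210 to 442 CPM).

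Over the whole class, 434 of 1933 long non-coding RNA genes were tested, 43 (9.91%) were higher and 23 (5.30%) lower, with a median log2 difference of 0.80. At equal depth 373 and 470 of them had at least 10 counts in the HDAC1 controls and 240 to 318 in the others, so some passed the filter through the HDAC1 controls and the median describes the tested genes only. Both shares are below those of all genes. The higher count fell to 14 without HDAC1 control 1, and it moved by more than 1.5 times without HDAC1 control 2 or either Osa control as well. The lower count was 15 without Osa control 1. Antisense RNAs had 7 of 106 higher and 7 lower, 2 and 2 without HDAC1 control 1, and both counts moved by more than 1.5 times without HDAC1 control 2 or Osa control 2 and the higher one without Osa control 1.

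Of 32 small nuclear RNA genes, which serve splicing and transcription, 12 passed the filter, 5 were higher and none was lower. Low genes that are high in the HDAC1 controls can pass the filter through them, so these counts describe the genes tested. snRNA:7SK, the scaffold that holds P-TEFb inactive, was at 91.5 and 79.9 CPM, against 11.1, 11.0 and 8.19 CPM and 26.4 and 28.0 CPM (log2 difference 2.37 ± 0.15, adjusted p = 5.18e-07). Their higher count was 3 without HDAC1 control 1 and also moved by more than 1.5 times without HDAC1 control 2 or Osa control 2. No microRNA precursor and no transfer RNA gene was called among 11 and 6 tested. Of 84 small nucleolar RNA genes, 2 were higher, and 1 was left without any of the GAF or HDAC1 controls in turn. The libraries were made from polyA RNA, and how RNAs without a polyA tail entered them was not tested. Levels of such RNAs, in these classes and in the ribosomal RNA class, are therefore levels in these libraries only.

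In the ribosomal RNA class, which also takes in copies of the 28S ribosomal pseudogene, 7 of 14 tested genes were lower and 1 was higher. The call of the higher gene was lost without HDAC1 control 1. The large mitochondrial ribosomal RNA (lrRNA) was at 1997 and 1190 CPM, against 37325, 44657 and 54524 CPM and 42287 and 39241 CPM (log2 difference -4.76 ± 0.27, adjusted p = 3.69e-07). The small mitochondrial ribosomal RNA (srRNA) followed it, at 6.98 and 3.98 CPM against 50.1 to 234 CPM. The lower genes of the class included copies of the 28S ribosomal pseudogene, with 28SrRNA-Psi:CR40596 at 1.31 and 1.27 CPM against 41.9 to 94.4 CPM. Near-identical copies share reads, so their single values are uncertain. The mitochondrial share of all counts was 0.570% and 0.368% in HDAC1 controls and 5.53% to 7.41% in the others.

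**Figure D4:**
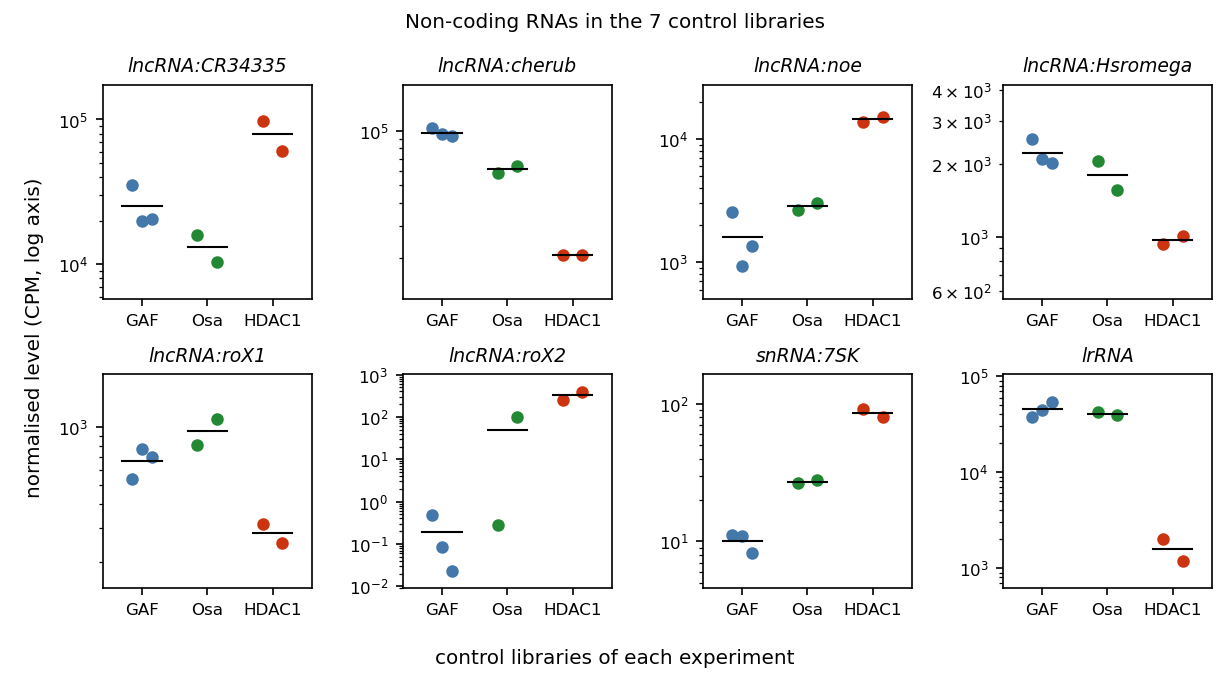
Normalised level in CPM (log axis) of 8 non-coding RNAs in the control libraries of each experiment; points are libraries and bars group means. lncRNA:CR34335, lncRNA:noe and snRNA:7SK lie highest and lncRNA:cherub, lncRNA:roX1 and lrRNA lowest in the HDAC1 controls, and lncRNA:roX2 is at 0.283 and 98.0 CPM in the Osa controls.

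Genes nearly absent from the other controls headed the list of higher genes. Such genes passed the filter through the HDAC1 controls, so they could enter only as higher genes. The neuropeptide gene Hug (chromosome 3R, 12526188 to 12529076, plus strand) was at 30.2 and 25.6 CPM and had no count in the other 5 libraries, at least 1875-fold higher against a floor of 3 counts over them. Eh, which encodes eclosion hormone, was at 22.1 and 54.6 CPM with no count elsewhere, at least 2606-fold higher. The calls of Hug and Eh were lost when all 14 libraries were fitted together. The insulin-like peptide gene Ilp3 was at 169 and 34.4 CPM, had no count in GAF controls and was at 0.113 and 0.0512 CPM in Osa controls, a call lost without either Osa control. The heat shock cognate gene Hsc70-2 was at 12.1 and 13.5 CPM on 923 counts against 2, a ratio of 1293 with an exact 95% counting interval of 357 to 10690.

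Of 15 neuropeptide and peptide hormone genes chosen after their values were seen, 5 were called higher and none lower. Some of the 15 were uneven between the 2 HDAC1 controls. Akh, the adipokinetic hormone of the corpora cardiaca, was at 481 and 3.14 CPM and Ilp5 at 120 and 1.08 CPM, and neither was called. The myosuppressin gene Ms was at 71.1 and 73.1 CPM against at most 0.792 CPM elsewhere. The neuropeptide precursor gene sNPF was at 2.76 and 1.54 CPM, against 30.0 and 11.7 CPM in Osa controls, and was not called against GAF controls.

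Epithelial, muscle and cuticle markers stood among the higher genes. A low gene that is high in the HDAC1 controls can pass the filter through them, so these counts describe the members tested. Of 9 genes tested in the tracheal and epithelial list, 6 were higher and none lower, including the chitin deacetylase genes verm and serp and the zona pellucida gene pio. The 6 also count nompC, a mechanosensory channel gene that is not an epithelial marker. For pio the levels were 60.4 and 84.3 CPM against 0 to 0.398 CPM. All 11 listed genes in the table summed to 265 to 272 CPM, against 62.5 to 94.0 CPM in the other controls, where 1 member was at 0. Muscle genes were higher in 6 of 13, with sls, the fly titin, at 11.4 and 14.2 CPM against 0.255 to 0.487 CPM. Their summed level was 175 to 230 CPM against 143 to 206 CPM. Without HDAC1 control 1, 2 muscle genes were called.

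Of 98 cuticle protein genes 30 passed the filter and 10 were higher, 6 without either HDAC1 control. Of 13 haemocyte genes 9 passed and 4 were higher, 1 without HDAC1 control 1. The blood cell gene Hml was at 2.68 and 1.35 CPM, a call lost without HDAC1 control 1, and the haemocyte list summed to 25.3 to 45.7 CPM against 30.7 to 57.3 CPM. Fat body genes summed to 51.0 to 65.3 CPM against 11.7 to 28.5 CPM, with the lipophorin gene apolpp at 52.2 and 31.5 CPM. These markers move with the lineage and metabolic differences above, and their part in those was not tested.

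At the low end, His3.3B and Nct were joined by Cdc42, a small GTPase of cell polarity (36.7 and 31.5 CPM, against 617, 723 and 636 CPM and 453 and 421 CPM), by Vps11 (27.7% of its exonic length is shared with other genes), Ate1 and chico, the insulin receptor substrate, and by 6 mitochondrial mRNAs. For Cdc42 the log2 difference was -3.98 ± 0.15 (adjusted p = 1.22e-07).

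The 7 RNAi and overexpression libraries share no library with the controls, but each belongs to the same experiment as its own controls. Of 3591 called genes tested in them, 97.8% lay on the same side when HDAC1 RNAi was compared with the mean of GAF RNAi and Osa overexpression, against 84.1% of all 9813 genes tested in both sets. With no overlap between libraries the shares were 65.9% and 38.4%. For dpn the 2 HDAC1 RNAi libraries were at 6.96 and 2.09 CPM and the others at 33.6 to 59.5 CPM. For lncRNA:noe they were at 18664 and 46036 CPM and the others at 2744 to 5069 CPM. Hug overlapped, with 5.89 and 43.5 CPM in HDAC1 RNAi and 9.96 CPM in 1 GAF RNAi library.

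**Figure D5:**
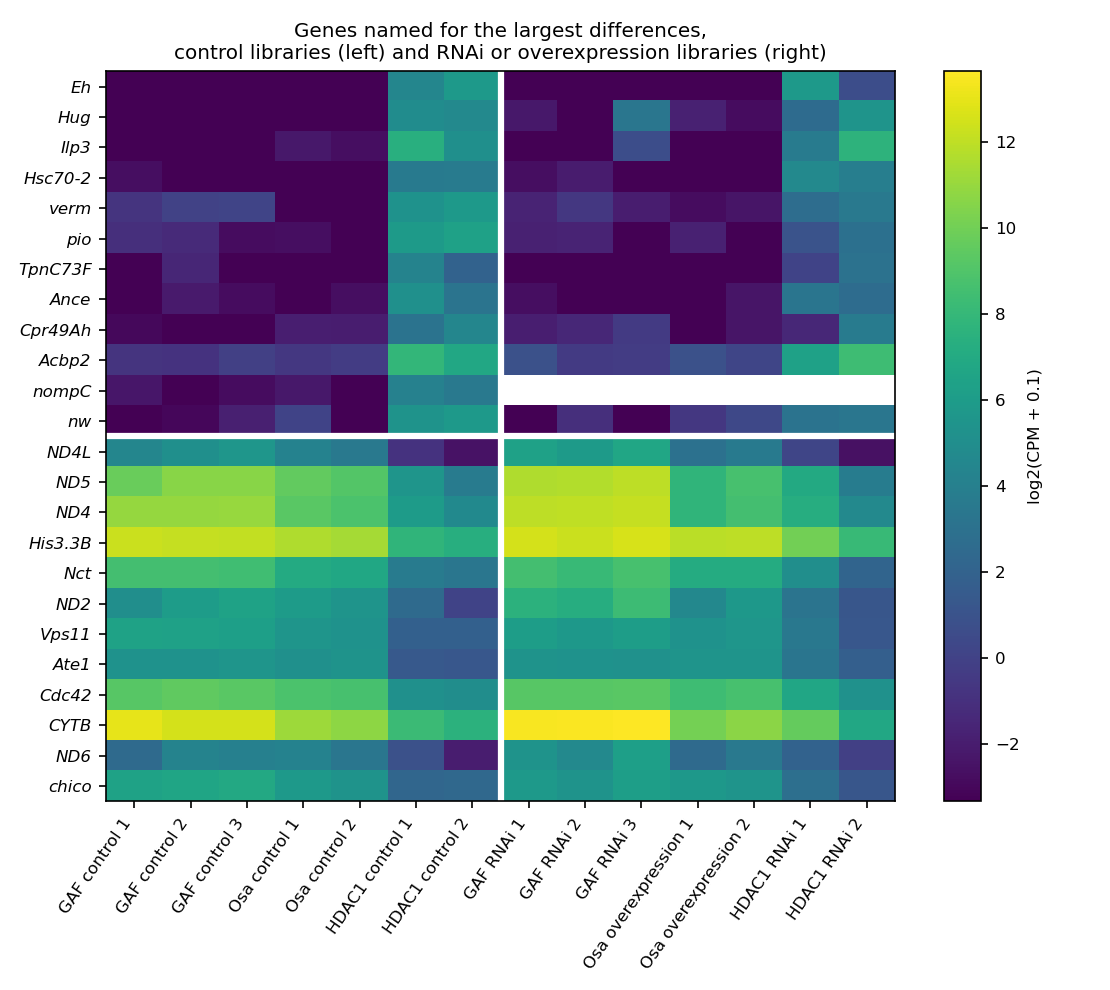
Levels as log2(CPM + 0.1) of the 24 genes with the largest differences by the naming rule, in the control libraries (left) and in the RNAi and overexpression libraries (right), each set scaled on its own. The 2 HDAC1 controls stand apart from the other 5 in every row because the naming rule required it. The gene nompC was not tested in the right-hand set and is left blank there.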

How the data were processed

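The authors deposited raw counts per gene for 14 libraries. The tools named are featureCounts 2.0.3, SAMtools 1.6, HISAT2 2.2.1 and Trim Galore 0.6.10, with genome dm6, per the submitters' processing notes. Libraries were amplified from few cells and no source used here names molecular identifiers, so reads are not counted as independent molecules, and intervals and floors cover counting error only. Even numbers made up 61.5% to 70.4% of the values 1 to 49, and counts divided by 2 were tried as an alternative. Gene classes, lengths and coordinates came from an Ensembl annotation of the same assembly, and 17161 of 17868 genes matched by symbol and 611 by synonym.

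The 7 control libraries were fitted in 3 groups with edgeR 4.0.16 (R 4.3.3): filterByExpr with a minimum count of 10, TMM scaling, a robust quasi-likelihood test and Benjamini-Hochberg adjustment at 0.05. The RNAi and overexpression libraries were fitted separately in the same way. In data simulated for HDAC1 controls against GAF and Osa controls over 9838 genes, 200 genes were changed. The rule of calls against both groups found 51% of 2-fold and 79% of 4-fold changes and 0 unchanged genes. GAF and Osa controls had equal means there and few genes changed, unlike the data. The simulation therefore cannot measure false calls or errors of scaling in these libraries.

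Members and the 63 gene lists were chosen with earlier results of these data known. Named genes were the 12 largest rises and 12 largest falls among called genes of at least 10 CPM without overlap, 6 and 6 non-coding RNAs of at least 5 CPM by the same rule, up to 4 called members per list with the smallest p, and a fixed set of lineage and targeted genes; other names were chosen after values were seen. Alternatives used RLE factors, library size, other filters, DESeq2 1.42.0, limma-voom 3.58.1, a replicate block, a minimum fold change, all 14 libraries, pooled controls and each library left out. GC content was not analysed here.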

Additional observations from a re-analysis of the deposited data

How the results depend on the processing

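With a test against a minimum log2 fold change of 1, 2435 genes were called against the mean of the other controls (5820 in the report), 1324 against both groups (3686), 926 between GAF and Osa controls (3925), 1270 on the same side in the RNAi and overexpression libraries (3511), and 225 list members (584). With the 5 other controls pooled as 1 group, 3651 genes were called against them. Leaving out each library in turn gave 4358 to 6284 genes against the mean, 2797 to 4078 against both groups, 2727 to 3851 on the same side in the RNAi and overexpression libraries, 441 to 661 list members, and 2414 to 4163 between GAF and Osa controls, with the low end of the last without Osa control 1 (2414) or Osa control 2 (2429). No called direction of a named gene reversed under the alternatives run. Of 232 named genes called against both groups, 189 kept the call in every fit that left out 1 library and tested them; further calls were lost under other alternatives, most often with the minimum fold change. Under the other alternatives these 5 counts stayed within 1.5 times of those reported. Counts of single lists moved further: under RLE scaling cytosolic ribosomal protein genes went from 19 to 30 higher, ribosome biogenesis genes from 5 to 8, newborn neuron and histone deacetylase complex genes from 2 to 4, and early temporal genes from 2 to 1 lower.

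With the replicate number as a block, which ended the calls of pros, stg and SdhA among others, 3394 genes were called against both groups and 5614 against the mean. Same-numbered libraries of different experiments deviated together only weakly, at correlations of -0.078 to 0.094, so the numbers do not pair them. The limits are the 2 libraries of the HDAC1 and Osa groups, the confounding of group with experiment, and low levels, where a few counts set a fold.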

Other observations

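Of 21 heat shock and chaperone genes 7 were lower and 1 higher, with a median log2 difference of -0.70. The chaperone gene Hsp83 was at 1047 and 1057 CPM in the HDAC1 controls against 2925 to 4828 CPM in the other controls, and Hsc70-4 at 1926 and 1671 CPM against 2787 to 4847 CPM. The higher member, the mitochondrial chaperonin gene Hsp60A, was at 303 and 338 CPM against 108 to 237 CPM, and its call was lost without either HDAC1 control or Osa control 2. Of 19 germline and piRNA genes 7 were lower and 1 higher. The Tudor-domain gene krimp was at 3.45 and 4.47 CPM against 11.6 to 33.5 CPM.

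Of 85 cytochrome P450 genes, 48 passed the filter, 7 were higher and none was lower, with 3 higher without HDAC1 control 2. The higher share is near the 14.1% of all genes. In the protein-coding genes of lowest level 16.3% were higher and 0.677% lower, and low genes can pass the filter through the HDAC1 controls. Cyp4g15 was at 27.8 and 20.3 CPM against 0.129 to 0.649 CPM. None of 7 Hox genes was called, with medians of 2.40 against GAF controls and 0.06 against Osa controls.

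Chromosome 4, the small heterochromatic autosome, stood apart from the other arms. Of its 77 tested protein-coding genes, 43 were lower in the HDAC1 controls against both groups and 3 were higher, with a median log2 difference of -1.20, against -0.01 to 0.14 on the other chromosome arms. GAF and Osa controls differed there by a median of 0.09. Its genes are longer, with a median exonic length of 4376 bases against 2057 to 2424 bases elsewhere. In the RNAi and overexpression libraries the median was -0.96. Members include the Polycomb gene pho, the translation factor gene eIF4G1, the semaphorin receptor gene PlexA, at 41.2 and 30.0 CPM against 181 to 316 CPM, and the temporal gene dati, a call lost without Osa control 1.

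Expression level moved with the differences as well. In the 2365 protein-coding genes of lowest mean level the median log2 difference was 1.52, against 0.01, -0.50 and -0.17 in the 3 groups of higher level. Low genes that are high in the HDAC1 controls can pass the filter through them, so the filter sets part of the first value.

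The eye colour gene w was at 64.3 and 55.7 CPM in HDAC1 controls and 124 to 209 CPM in the other controls. No gene of 12 on the Y chromosome passed the filter, and their summed level was 0.108 to 0.399 CPM in HDAC1 controls and at most 0.170 CPM elsewhere.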
